A study of Mus musculus with 18 samples.

Results

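The 36 genes described here are marker genes of vascular and lymphatic endothelial cells, measured in cultures of mouse mammary organoids. They were matched by gene symbol in the deposited table of 55536 genes, and a member needed at least 10 raw counts over the 18 libraries. All 36 met that minimum, and all 36 passed the filter on low counts, which kept 17092 genes for the tests. The rule used names and total counts, not media or genotypes. The genes on the list were, however, chosen with earlier results of these data known. The counts of called genes below therefore describe these genes and are not a test of a list set beforehand.

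The organoids were grown from mammary glands of C57BL/6 mice aged 6 to 7 weeks, as pellets in matrigel, a basement membrane gel, with DMEM/F12 and insulin, transferrin and selenium in every culture. There were 6 groups of 3 libraries: RasGRP1-/- (KO) and wild-type (WT) organoids, each in the media ERW, EGF and RW for 5 days. ERW medium held EGF at 2.5 nM with NGS-Wnt at 0.1 nM and Rspo2 at 8.3 nM, EGF medium held EGF alone at 2.5 nM, and RW medium held NGS-Wnt at 0.1 nM with Rspo2 at 8.3 nM and no EGF. EGF (epidermal growth factor) activates the EGF receptor, NGS-Wnt is a designed surrogate of the Wnt ligands, Rspo2 (R-spondin 2) strengthens Wnt signalling by keeping Frizzled receptors at the cell surface, and RasGRP1 is an exchange factor that activates Ras. Per the labels, replicates 1, 2 and 3 are also batches 1, 2 and 3, and every group has 1 library in each batch. The labels call the cells mammary epithelial cells and name no step that removed or enriched other cells. They do not say whether the 3 biological replicates of a group came from separate mice.

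Endothelial cells line blood and lymphatic vessels. They are held together by VE-cadherin junctions. Their survival and sprouting depend on VEGF receptors, on the angiopoietin receptor Tek with the orphan receptor Tie1, and on transcription factors of the ETS and SOXF families. In the mammary gland vessels run through the fat pad around the epithelial ducts. An organoid made from ducts is an epithelial culture in which endothelial cells are usually a minor part.

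The libraries held 24290097 to 31269899 counts, with 18926 to 22319 genes counted. Rasgrp1, the deleted gene, had 0 to 9 counts in KO libraries and 6 to 28 counts in WT libraries, so its level was low in either genotype. The epithelial markers Epcam, Krt8, Krt18, Krt14, Krt5, Cdh1, Cldn4 and Cldn7 summed to 6674 to 9764 CPM in ERW, 5510 to 8889 CPM in EGF and 7732 to 10880 CPM in RW libraries. CPM are counts scaled to the effective library size (TMM). The 36 endothelial genes together stood far below this, with a lowest, median and highest sum of 274, 418 and 493 CPM over the 6 ERW libraries, 682, 870.4 and 1060 CPM over the 6 EGF libraries and 619.6, 800.2 and 1228 CPM over the 6 RW libraries. Every ERW library lay below every EGF and every RW library, and the EGF and RW libraries overlapped. Within each batch and genotype the ERW sum was 1.47 to 2.74 times lower than the RW sum and 1.48 to 3.11 times lower than the EGF sum. CPM are shares of the counts of a library and do not give amounts. In these bulk cultures, fewer endothelial cells, less endothelial RNA per cell and more RNA from other cells cannot be told apart.

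**Figure D1:**
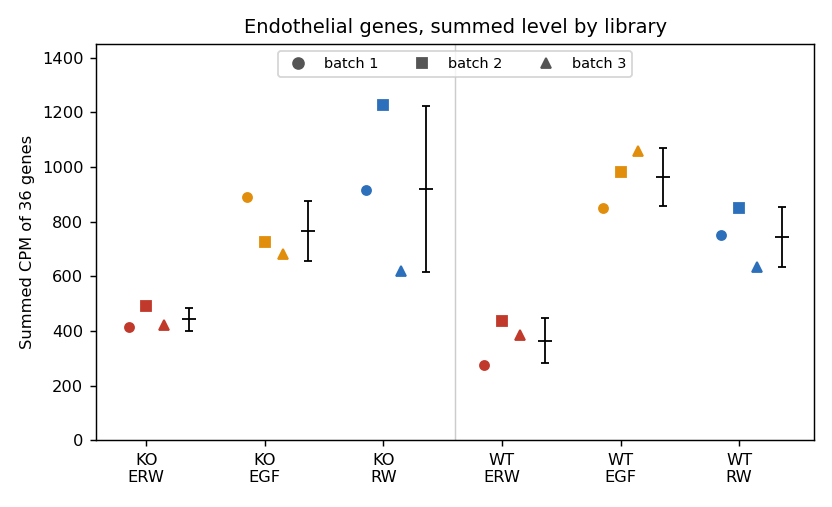
Summed level of the 36 endothelial genes (y axis, CPM) in each library, by genotype and medium (x axis). Symbols mark batches 1, 2 and 3, and the black bars give the mean ± SD of 3 libraries. All ERW libraries lie between 274 and 493 CPM, below all EGF and RW libraries.

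Adding EGF to Wnt and R-spondin was accompanied by lower levels of nearly all endothelial genes. In ERW against RW medium, averaged over KO and WT, 32 of the 36 genes fell, 1 rose (Flt1) and 3 were not called (Apln, Aplnr and Lyve1), by the quasi-likelihood test of edgeR at an adjusted p under 0.05. Of all 17092 tested genes, 11.9% were called lower and 11% higher in this comparison. The median log2 fold change was -1.14 over the 36 genes and 0.00 over all tested genes. For 18 of the 36 genes the 6 ERW libraries lay entirely below the 6 RW libraries, against 3.03% of all tested genes. Within batch and genotype, 203 of the 216 gene-wise pairs were lower in ERW, and 32 genes were lower in all 6 pairs. The share of all tested genes that were lower in all 6 pairs was not counted.

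**Figure D2:**
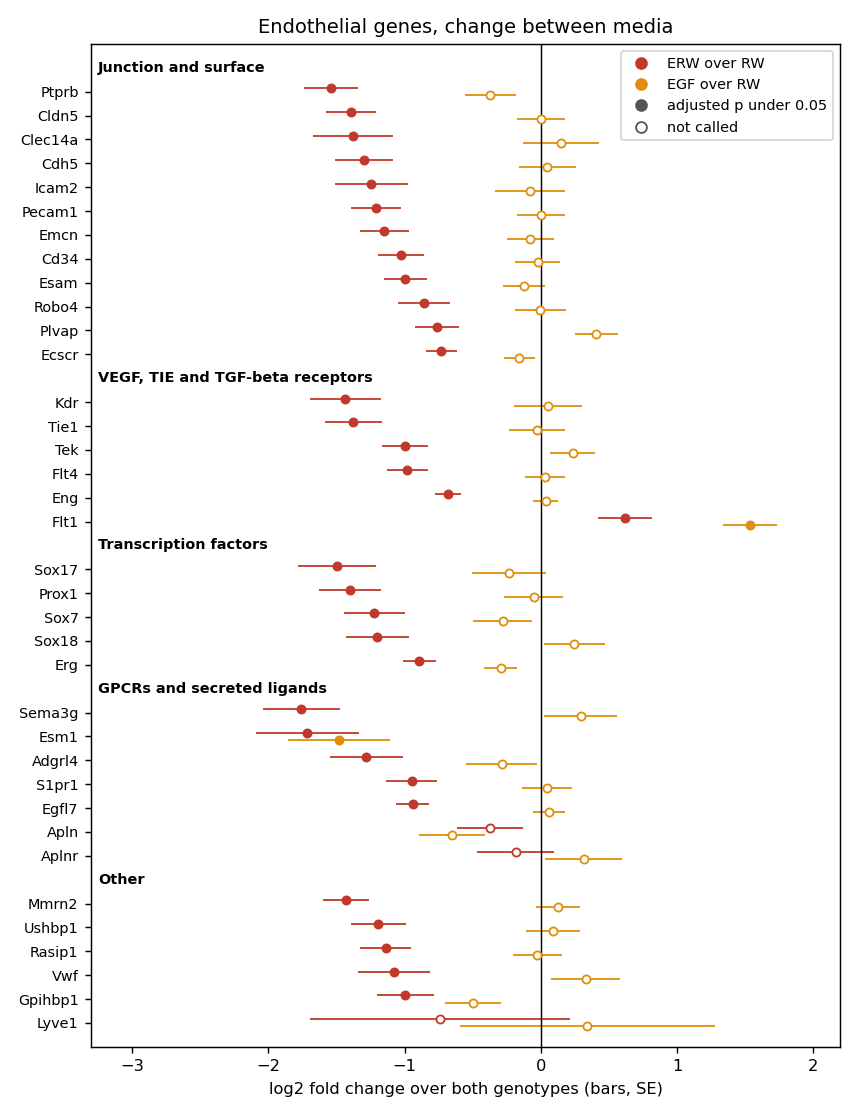
Log2 fold change of each endothelial gene (x axis, with SE bars) for ERW over RW medium (red) and EGF over RW medium (orange), averaged over genotypes, with genes grouped by role (y axis). Filled points passed an adjusted p under 0.05 and open points did not. Most red points lie near -1 while most orange points lie near 0, and Flt1 lies right of 0 in both.

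The 12 junction and surface genes all fell in ERW against RW medium. Cdh5, which lies on the plus strand at chr8:104101625-104144511 (GRCm38) and encodes VE-cadherin, the adhesion molecule of endothelial junctions, had lowest, median and highest levels of 31.3, 58.8 and 74 CPM in ERW libraries, against 91.4, 143 and 223 CPM in RW libraries. The groups did not overlap, and Cdh5 was 2.45-fold lower in ERW, a log2 fold change of -1.30 ± 0.21 (SE; edgeR adjusted p = 0.000947). Pecam1, the cell adhesion molecule CD31, had lowest, median and highest levels of 19.5, 39 and 46.1 CPM in ERW libraries, against 61.2, 83.3 and 136 CPM in RW libraries. These did not overlap either (-1.21 ± 0.18, SE; edgeR adjusted p = 0.000364). Cd34, a sialomucin of the luminal surface, had lowest, median and highest levels of 9.26, 21.2 and 26.9 CPM in ERW libraries, against 25, 40.3 and 54.3 CPM in RW libraries. Here the highest ERW library stood above the lowest RW library, and the log2 fold change was -1.03 ± 0.17 (SE; edgeR adjusted p = 0.000543). The other genes of this role span a range of sizes. The steepest was Ptprb, the phosphatase VE-PTP that acts on Tek and VE-cadherin, at -1.54 ± 0.20 (SE). It was followed by Cldn5, a tight junction claudin, at -1.39 ± 0.18 (SE), Clec14a, a C-type lectin of endothelium, at -1.38 ± 0.29 (SE), Icam2, an adhesion molecule, at -1.25 ± 0.27 (SE) and Emcn, a sialomucin of capillaries and veins, at -1.15 ± 0.18 (SE). The smaller changes were those of Esam at -0.996 ± 0.16 (SE), Robo4 at -0.86 ± 0.19 (SE), Plvap, the protein of fenestral diaphragms, at -0.76 ± 0.16 (SE) and Ecscr, a regulator of endothelial chemotaxis, at -0.73 ± 0.11 (SE). The call of Plvap was lost without the replicate block, those of Clec14a and Icam2 without batch 1, and that of Robo4 without batch 2.

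Among the 6 receptors of the VEGF, Tie and TGF-beta groups, 5 fell and 1 rose. Kdr, VEGF receptor 2, which carries most VEGF-A signalling and lies on the minus strand at chr5:75932827-75978458, had lowest, median and highest levels of 6.10, 15.6 and 27.5 CPM in ERW libraries, against 29.7, 40.5 and 78.5 CPM in RW libraries. The groups did not overlap, and Kdr was 2.70-fold lower in ERW (-1.43 ± 0.26, SE; edgeR adjusted p = 0.00162). Tie1, the orphan receptor that modulates angiopoietin signalling, had lowest, median and highest levels of 9.90, 17.9 and 29 CPM in ERW libraries, against 30.9, 43 and 87.3 CPM in RW libraries. These groups did not overlap (-1.38 ± 0.21, SE; edgeR adjusted p = 0.000428). Tek, the angiopoietin receptor TIE2, changed by -0.998 ± 0.17 (SE), Flt4, the VEGF-C receptor of lymphatic vessels, by -0.98 ± 0.15 (SE) and Eng, the TGF-beta co-receptor endoglin, by -0.68 ± 0.09 (SE), all called lower.

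Flt1, VEGF receptor 1, on the minus strand at chr5:147561604-147726011, binds VEGF-A, VEGF-B and placental growth factor and is also made as a soluble form that traps these ligands. All its transcripts were counted as 1 gene, so the membrane and the soluble form cannot be told apart here. Its level was 46.2, 27.6 and 32.7 CPM in KO libraries and 44.3, 16.5 and 35 CPM in WT libraries in ERW medium (batches 1, 2 and 3). In EGF medium it was 76.1, 39.9 and 61 CPM in KO and 77.5, 40.02 and 84.3 CPM in WT libraries. In RW medium it was 27.3, 26.2 and 15.7 CPM in KO and 31.1, 12.9 and 16 CPM in WT libraries. In all 6 pairings of batch and genotype the order was EGF highest, ERW next and RW lowest, and batch 2 was the lowest batch in the ERW and EGF libraries of either genotype. Pooled over batches, the ERW and RW libraries overlapped, and the log2 fold change of ERW over RW was 0.62 ± 0.20 (SE; edgeR adjusted p = 0.0415). This call is a weak one: it was lost without the replicate block (adjusted p = 0.189), without the filter on low counts (adjusted p = 0.110), without batch 1 or batch 3, and on removal of any of 13 of the 18 single libraries, and over all 25 alternatives its adjusted p ranged over 0.000514 to 0.248. The 13 libraries were KO_EGF 1, 2 and 3, KO_ERW 1, 2 and 3, KO_RW 1 and 3, WT_EGF 1, WT_ERW 1 and 3, and WT_RW 2 and 3. Flt1 took 3.79, 8.42 and 16.2% (lowest, median and highest) of the counts of the 36 genes in ERW libraries, 4.08, 8.26 and 9.10% in EGF libraries and 1.52, 2.53 and 4.16% in RW libraries. The ratio of Flt1 to Kdr counts had lowest, median and highest values of 0.602, 2.17 and 7.26 in ERW, 0.762, 1.53 and 2.46 in EGF and 0.256, 0.462 and 1.03 in RW libraries. Per kilobase of annotated exon, Flt1 averaged 2.50 ± 0.814 CPM in ERW, 4.68 ± 1.44 CPM in EGF and 1.59 ± 0.560 CPM in RW medium (SD, n = 6 each). On the same scale Kdr averaged 1.92 ± 0.947 CPM in ERW, 5.02 ± 1.68 CPM in EGF and 4.98 ± 2.01 CPM in RW medium (SD, n = 6 each).

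**Figure D3:**
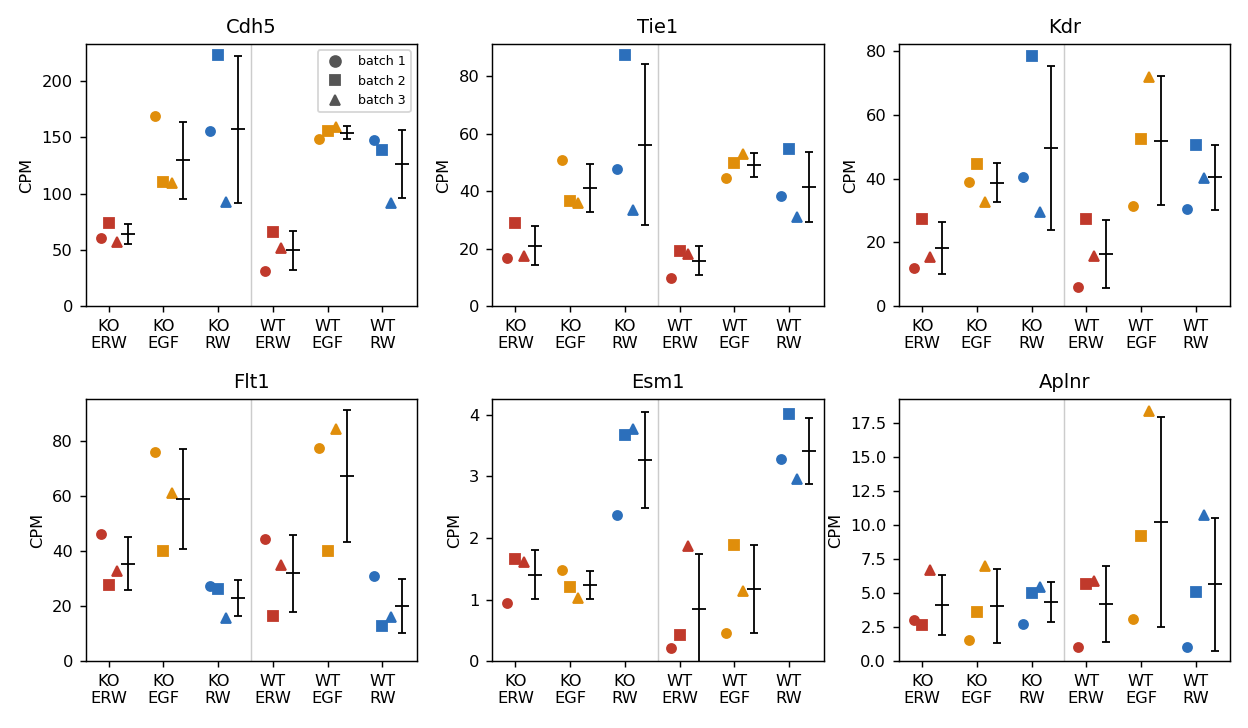
Level of 6 endothelial genes (y axes, CPM) in each library, by genotype and medium (x axes), with symbols for batches 1, 2 and 3 and black bars for the mean ± SD of 3 libraries. Cdh5, Tie1 and Kdr are low in ERW, Flt1 is highest in EGF, Esm1 is high only in RW libraries, and Aplnr follows the batch more than the medium.

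Flt1 and Kdr are related receptors whose genes lie on the same chromosome. They moved in opposite directions in ERW against RW medium, where the Flt1 call was weak, and both fell in ERW against EGF medium. Their promoters are shown with those of Cd34 and Erg, which fell in both comparisons. Of the 15 genes picked by count within each role, these 4 have a RefSeq start within 5 bases of the deposited gene start. Each window holds the 250 bases before the RefSeq start, read along the strand of the gene (RefSeq, GRCm38.p6), and capitals mark the core of ETS factors, CGGAAG or AGGAAG, on either strand.
Flt1, chr5:147726012-147726261, minus strand: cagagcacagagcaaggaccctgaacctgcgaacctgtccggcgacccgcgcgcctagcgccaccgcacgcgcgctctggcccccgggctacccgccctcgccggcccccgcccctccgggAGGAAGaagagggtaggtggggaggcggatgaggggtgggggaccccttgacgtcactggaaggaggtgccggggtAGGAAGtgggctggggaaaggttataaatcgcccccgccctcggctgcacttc
Kdr, chr5:75978456-75978705, minus strand: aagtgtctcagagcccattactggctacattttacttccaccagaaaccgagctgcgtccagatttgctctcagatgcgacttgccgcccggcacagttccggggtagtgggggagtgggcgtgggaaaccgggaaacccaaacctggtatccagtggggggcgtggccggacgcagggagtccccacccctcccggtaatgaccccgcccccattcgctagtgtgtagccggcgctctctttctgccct
Cd34, chr1:194938571-194938820, plus strand: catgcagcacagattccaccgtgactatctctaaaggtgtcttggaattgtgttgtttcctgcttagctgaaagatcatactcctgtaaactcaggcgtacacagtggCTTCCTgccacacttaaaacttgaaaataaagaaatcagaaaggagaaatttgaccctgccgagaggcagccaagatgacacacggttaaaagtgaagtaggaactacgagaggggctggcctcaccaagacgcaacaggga
Erg, chr16:95586594-95586843, minus strand: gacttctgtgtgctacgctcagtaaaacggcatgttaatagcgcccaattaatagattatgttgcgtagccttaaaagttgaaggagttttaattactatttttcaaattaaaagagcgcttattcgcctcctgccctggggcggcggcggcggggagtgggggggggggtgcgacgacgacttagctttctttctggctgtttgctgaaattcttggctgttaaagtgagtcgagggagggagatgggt
The Flt1 window held 2 such cores, both on the strand of the gene, and the Cd34 window held 1 on the other strand. The Kdr and Erg windows held 0, which says only that these letters are not in those windows. RefSeq windows were at hand for 20 of the 36 genes, and the window nearest the deposited gene start was taken. For 14 of the 20, the first 30 bases after the RefSeq start occur in an annotated transcript of the gene (GENCODE M21). Of the 20 windows, 12 (60%) held an ETS core: Adgrl4, Apln, Cd34, Egfl7, Emcn, Eng, Flt1, Rasip1, Robo4, Sema3g, Tie1 and Ushbp1. The share over all 32851 windows, without a choice of 1 window per gene, was 39.2%. A SOX core (ACAAAG or ACAATG) was in 4 of the 20 windows, against 25.2% of all windows. A GATA core (AGATAA) was in 0 of 20, against 9.99% of all, and the E-box CAGGTG was in 1 of 20 (Flt4), against 17.2% of all. No test was made on the motifs.

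All 5 transcription factors fell in ERW against RW medium. Sox18, a SOXF factor of vascular and lymphatic development, had lowest, median and highest levels of 5.91, 9.73 and 14.9 CPM in ERW libraries, against 15.1, 26.3 and 34.3 CPM in RW libraries. These groups did not overlap (-1.20 ± 0.23, SE; edgeR adjusted p = 0.00181). Erg, the ETS factor that maintains endothelial identity and junctions, had lowest, median and highest levels of 9.21, 14.3 and 16.3 CPM in ERW libraries, against 18.7, 25 and 33.8 CPM in RW libraries. These too stood apart (-0.89 ± 0.12, SE; edgeR adjusted p = 3.72e-05). Sox7, another SOXF factor, had lowest, median and highest levels of 5.04, 8.54 and 11.3 CPM in ERW libraries, against 13, 19.2 and 29.7 CPM in RW libraries. Again no ERW library reached an RW library (-1.22 ± 0.22, SE; edgeR adjusted p = 0.000991). Sox17, the SOXF factor of arteries, changed by -1.49 ± 0.29 (SE) and Prox1, which specifies lymphatic endothelium, by -1.40 ± 0.23 (SE).

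Of the 7 G protein-coupled receptors and secreted factors, 5 fell and 2 were not called. Egfl7, a secreted factor of endothelial matrix, had lowest, median and highest levels of 6.67, 12.5 and 21.7 CPM in ERW libraries, against 14.3, 21.7 and 45.5 CPM in RW libraries. Its groups overlapped across batches, and the log2 fold change was -0.94 ± 0.12 (SE; edgeR adjusted p = 1.74e-05). S1pr1, the sphingosine-1-phosphate receptor that stabilises junctions, had lowest, median and highest levels of 4.02, 7.81 and 12.7 CPM in ERW libraries, against 8.43, 12.7 and 36.7 CPM in RW libraries. The groups overlapped (-0.95 ± 0.19, SE; edgeR adjusted p = 0.00123), and the call was lost without the replicate block. Sema3g, a class 3 semaphorin of arterial endothelium, had lowest, median and highest levels of 1.73, 2.75 and 4.54 CPM in ERW libraries, against 2.66, 12.3 and 19.6 CPM in RW libraries. The lowest RW library, WT of batch 3, stood among the ERW libraries, and Sema3g still had the steepest change of the 36 genes in this comparison (-1.76 ± 0.28, SE; edgeR adjusted p = 0.000310). Adgrl4, the adhesion receptor ELTD1, changed by -1.28 ± 0.27 (SE), a call lost without batch 2.

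Of the 6 other genes, 5 fell and Lyve1 was not called. Vwf, the clotting protein of endothelial storage granules, had lowest, median and highest levels of 6.35, 8.22 and 10.0003 CPM in ERW libraries, against 8.93, 18.5 and 32.2 CPM in RW libraries. Its groups overlapped through the RW libraries of batch 3 (-1.08 ± 0.26, SE; edgeR adjusted p = 0.00846), and the call was lost without batch 1 or batch 2. Mmrn2, a matrix protein that binds Clec14a, had lowest, median and highest levels of 3.93, 5.14 and 6.59 CPM in ERW libraries, against 8.83, 14.5 and 24.3 CPM in RW libraries. These groups did not overlap (-1.43 ± 0.17, SE; edgeR adjusted p = 9.73e-06). Rasip1, a Ras-interacting protein needed for vessel lumens, had lowest, median and highest levels of 4.37, 5.73 and 8.81 CPM in ERW libraries, against 10.3, 14 and 18.4 CPM in RW libraries. These did not overlap either (-1.14 ± 0.19, SE; edgeR adjusted p = 0.000217). Ushbp1 changed by -1.19 ± 0.20 (SE) and Gpihbp1, which carries lipoprotein lipase to the capillary lumen, by -0.996 ± 0.21 (SE).

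The same direction was seen when Wnt and R-spondin were added to EGF. This comparison shares its ERW libraries with the one above, so the pair is not independent. In ERW against EGF medium 31 of the 36 genes fell, 0 rose and 5 were not called (Apln, Aplnr, Esm1, Gpihbp1 and Lyve1), against 14.5% called lower and 13.4% called higher of all tested genes. The median log2 fold change was -1.10 over the 36 genes and 0.01 over all tested genes. For 15 genes all 6 ERW libraries lay below all 6 EGF libraries, against 3.93% of all tested genes. The steepest were Sema3g at -2.05 ± 0.28 (SE; edgeR adjusted p = 8.95e-05) and Mmrn2 at -1.55 ± 0.17 (SE; edgeR adjusted p = 6.26e-06). Cdh5, with 109, 152 and 169 CPM as its lowest, median and highest level in EGF libraries, changed by -1.34 ± 0.21 (SE; edgeR adjusted p = 0.000710). Kdr, with 31.5, 41.7 and 71.7 CPM in EGF libraries, changed by -1.49 ± 0.26 (SE; edgeR adjusted p = 0.00123). Flt1 fell in this comparison (-0.92 ± 0.20, SE; edgeR adjusted p = 0.00376), a call lost without the replicate block (adjusted p = 0.0527). The share of all tested genes that fell in ERW against RW and against EGF medium alike was not counted. Of the 36 genes, 30 fell in both. Of these, the ERW against EGF call was lost for Adgrl4 and S1pr1 without the replicate block, for Adgrl4 also without batch 2, for Sox7 and Sox17 without batch 1, and for Clec14a, Ecscr and Erg without batch 3.

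Between EGF medium and RW medium few endothelial genes were called. In EGF against RW medium 1 of the 36 genes rose (Flt1), 1 fell (Esm1) and 34 were not called, against 12.9% called higher and 12.5% called lower of all tested genes. Averaged over genotypes, the median log2 fold change was 0.00 over the 36 genes and -0.02 over all tested genes. The average near 0 pools 2 medians of opposite sign. In KO 32 of the 36 log2 fold changes of EGF over RW were negative (median -0.36), and in WT 30 were positive (median 0.38). The genes share their libraries, so a common sign is not 36 separate results. By batch the summed level in EGF was 0.972, 0.593 and 1.10 times that in RW medium in KO (batches 1, 2 and 3). In WT it was 1.14, 1.15 and 1.67 times. Batch 3 of KO thus did not share the direction of the KO median. The test of the difference between genotypes called 0 of the 36 genes by edgeR at an adjusted p under 0.05 and 0 by DESeq2. At an unadjusted p under 0.05 edgeR gave 13, and the share of all tested genes at that threshold was not counted. This comparison shares its EGF and RW libraries with the comparisons above. For the uncalled Cdh5 the difference was 0.05 ± 0.21 (SE), for Pecam1 0.00 ± 0.18 (SE) and for Kdr 0.06 ± 0.25 (SE). The count moved to 4 with DESeq2, which also called Apln (-0.66, adjusted p = 0.0342) and Plvap (0.41, adjusted p = 0.0378), and to 5, 4 and 6 without KO_EGF 1, KO_RW 1 and KO_RW 3.

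Flt1 had the strongest rise, 2.90-fold higher in EGF than in RW medium (1.54 ± 0.20, SE; edgeR adjusted p = 8.53e-05). Its 6 EGF libraries all lay above its 6 RW libraries, which held for 4.82% of all tested genes, and the call held under all 25 alternatives, with adjusted p-values of 1.80e-15 to 0.00797. Esm1, the proteoglycan endocan of sprouting tip cells, on the plus strand at chr13:113209659-113218098, was named here after its values were seen. It was at 0.946, 1.66 and 1.61 CPM in KO and 0.224, 0.428 and 1.88 CPM in WT libraries in ERW medium. In EGF medium it was at 1.48, 1.20 and 1.03 CPM in KO and 0.468, 1.89 and 1.15 CPM in WT libraries. In RW medium it was at 2.37, 3.67 and 3.77 CPM in KO and 3.28, 4.0 and 2.95 CPM in WT libraries. All 6 RW libraries lay above the 6 EGF libraries, a pattern shared by 3.46% of all tested genes, and above the 6 ERW libraries, although the level was low, with 965 counts over the 18 libraries. Esm1 was 2.80-fold lower in EGF than in RW medium (-1.48 ± 0.37, SE; edgeR adjusted p = 0.00654) and 3.28-fold lower in ERW than in RW medium (-1.71 ± 0.38, SE; edgeR adjusted p = 0.00302). Between ERW and EGF it was not called (-0.23 ± 0.39, SE).

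The following genes were not called in at least 1 of the ERW comparisons and were singled out after their values were seen. Apln, the peptide ligand apelin, ran at 2.93, 6.77 and 11.3 CPM (lowest, median and highest) in ERW, 3.18, 4.87 and 8.45 CPM in EGF and 5.14, 8.74 and 12.1 CPM in RW libraries, with -0.37 ± 0.24 (SE) for ERW over RW and -0.66 ± 0.24 (SE) for EGF over RW medium, neither called by edgeR. Its receptor Aplnr ran at 1.02, 4.36 and 6.67 CPM in ERW, 1.57, 5.29 and 18.3 CPM in EGF and 1.05, 5.05 and 10.8 CPM in RW libraries. Over the media its mean was 9.01 CPM in batch 3, 5.21 CPM in batch 2 and 2.09 CPM in batch 1, a 4.32-fold range that was the widest of the 36 genes. The median gene differed 1.499-fold between its highest and lowest batch, 32 of 36 differed less than 2-fold, and 20 were highest in batch 2. Lyve1, the hyaluronan receptor of lymphatic endothelium and of some macrophages, lay at or under 1.78 CPM in every library and at 0 in 1 of them, with no call in any comparison. Gpihbp1 fell in ERW against RW medium (-0.996 ± 0.21, SE). For ERW over EGF it was at -0.50 ± 0.21 (SE), in the same direction but not called.

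The likeness of the genes to each other over the 18 libraries was described by the correlation of each gene with the mean of the other 35, on log2 CPM with batch means removed. These libraries share the medium differences given above, so the values describe the same pattern once more. The correlation was at least 0.75 for 31 genes, led by Pecam1 (0.988), Cdh5 (0.981), Tie1 (0.973) and Kdr (0.973). It was lower for Esm1 (0.534), Aplnr (0.483), Apln (0.312), Lyve1 (0.219) and Flt1 (0.158). Among all other tested genes, the 10 most like the mean of the 36 were Fscn1, Adgrf5, Ptprm, Ebf1, Rarres2, Arap3, Lmo2, Plxnd1, Prex2 and Zeb1, at 0.981 for Fscn1 down to 0.965 for Zeb1. Of the variance of the 36 genes, the medium took 56.9%, the batch 16.2%, the genotype 1.82% and the interaction of genotype and medium 6.46%, against 26.9%, 33.8%, 4.47% and 4.79% for all tested genes.

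The loss of RasGRP1 was not accompanied by a called change in any of the 36 genes. Over the 3 media, KO against WT had 0 calls by edgeR and 0 by DESeq2, with 0.339% of all tested genes called by edgeR. At an unadjusted p under 0.05 there were 2, S1pr1 (0.39 ± 0.15, SE; edgeR adjusted p = 0.370) and Sox17 (0.49 ± 0.23, SE; edgeR adjusted p = 0.456). The share of all tested genes at that threshold was not counted. S1pr1 was at 5.02, 12.7 and 10.4 CPM in KO and 4.02, 9.34 and 6.28 CPM in WT libraries in ERW medium. In RW medium it was at 11.7, 36.7 and 13.7 CPM in KO and 8.43, 14.7 and 10.5 CPM in WT libraries. In EGF medium it ran at 11.5 to 18.9 CPM over both genotypes. Pooled over batches, the groups overlapped in each medium. Paired by batch and medium, S1pr1 was lower in KO in 1 and not lower in 8 of the 9 pairs. Over all 36 genes, 144 of the 324 such pairs were lower in KO.

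Within single media the sign of the small KO against WT differences ran together, in opposite directions. In ERW medium 33 of the 36 log2 fold changes were positive (median 0.35), in EGF medium 34 were negative (median -0.32) and in RW medium 34 were positive (median 0.30), while the medians over all tested genes were 0.00, -0.01 and 0.00. By edgeR 0 of the 36 genes were called in any medium, against 0.0819%, 0.0702% and 0.0819% of all tested genes in ERW, EGF and RW. At an unadjusted p under 0.05 there were 1, 8 and 5. The genes share their libraries, so the common sign is not 36 separate results. In EGF medium the KO sum was 1.04, 0.742 and 0.643 times the WT sum in batches 1, 2 and 3, so batch 1 did not share the direction. In RW medium it was 1.22, 1.44 and 0.978 times, and in ERW medium 1.52, 1.13 and 1.09 times. The tests of the difference itself, the interactions of genotype and medium, called 0 of the 36 genes and 0% of all tested genes by edgeR, and 0 of the 36 by DESeq2. At an unadjusted p under 0.05 there were 13 of the 36 for EGF against RW medium, 9 for ERW against EGF medium and 0 for ERW against RW medium. The share of all tested genes at the unadjusted threshold was not counted, here or within single media. These unadjusted counts are therefore not read as a genotype effect on the 36 genes. The lowest unadjusted values were those of Prox1 for EGF against RW (-1.44 ± 0.44, SE) and Emcn for ERW against EGF (1.15 ± 0.36, SE).

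**Figure D4:**
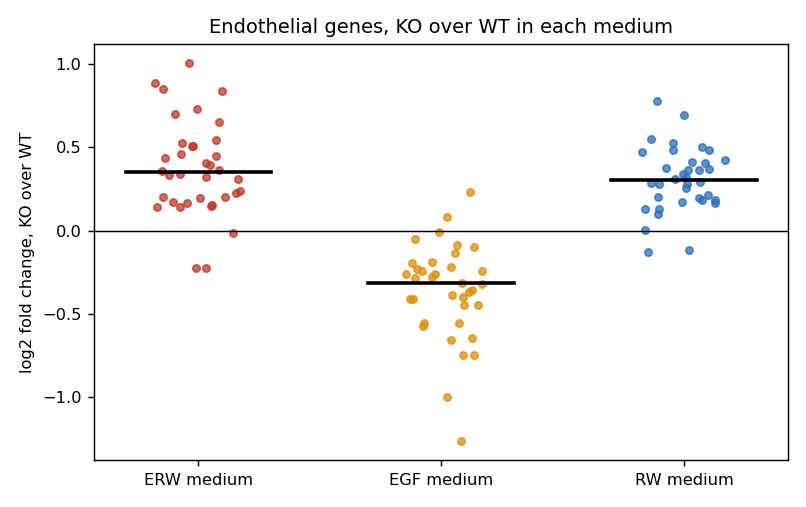
Log2 fold change of KO over WT (y axis) for each of the 36 endothelial genes in ERW, EGF and RW medium (x axis), with points spread sideways for legibility and black lines at the medians of 0.35, -0.32 and 0.30. None of the points passed an adjusted p under 0.05.

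In ERW medium the genes were lower in each genotype alone, with 3 libraries against 3. In ERW against RW medium 27 genes fell in KO, against 6.65% of all tested genes called lower, and 27 fell in WT, against 5.82%, with median log2 fold changes of -1.09 in KO and -1.15 in WT. The KO count of genes that fell was 17, 17, 16 and 15 without KO_ERW 1, KO_ERW 3, KO_RW 1 and KO_RW 2. The last of these fits also called 1 gene higher. The WT count was 13 without WT_ERW 1. In ERW against EGF medium 13 fell in KO, against 6.48% of all tested genes, and 32 fell in WT, against 8.78%, with medians of -0.75 in KO and -1.51 in WT. Without KO_EGF 1 and KO_EGF 3, the genes that fell in KO came to 2 and 4, and 1 gene rose without KO_EGF 1. Without KO_ERW 1, 2 and 3, those that fell came to 2, 5 and 3. These counts are not shown to differ between genotypes, since the interaction called 0 genes. In EGF against RW medium Flt1 rose and Erg fell in KO (2 of 36, against 13.5% of all tested genes), and Flt1 and Plvap rose and Esm1 fell in WT (3 of 36, against 15.4%). The KO count ranged over 0 to 8 and the WT count came to 1 when single libraries were left out (KO: KO_EGF 1 and 2, KO_RW 1, 2 and 3, WT_ERW 3; WT: WT_EGF 3, WT_RW 1 and 2). Flt1 stood at 1.28 ± 0.28 (SE; edgeR adjusted p = 0.00851) in KO and 1.79 ± 0.29 (SE; edgeR adjusted p = 0.000817) in WT. In the authors' deposited table, ERW against RW medium had 29 of the 36 genes lower and 0 higher in KO, against 8.42% of all genes with an adjusted p there called lower, and 32 lower and 0 higher in WT, against 7.6%.

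The ligands of these receptors moved in both directions. Of 10 ligand genes on the list 8 passed the filter, and in ERW against RW medium 2 rose and 3 fell. Angpt1, the ligand that activates Tek, is made mainly by mural and stromal cells. Its lowest, median and highest levels were 25.8, 36.5 and 67.3 CPM in ERW, 54.1, 74.8 and 94.8 CPM in EGF and 19.1, 26.3 and 31.9 CPM in RW libraries. It rose by 0.72 ± 0.15 (SE) in ERW against RW and by 1.58 ± 0.15 (SE) in EGF against RW medium, both on the log2 scale. Angpt2, the context-dependent antagonist released by endothelium, was at 6.67, 9.38 and 10.7 CPM in ERW, 8.35, 12 and 15.9 CPM in EGF and 17, 19.2 and 31.2 CPM in RW libraries, and fell against RW medium in ERW (-1.30 ± 0.15, SE) and in EGF (-0.81 ± 0.15, SE). Vegfc, a ligand of Flt4, rose in ERW (0.64 ± 0.17, SE) and in EGF (0.61 ± 0.17, SE) against RW medium, while Vegfd, another Flt4 ligand, fell in ERW against RW (-1.10 ± 0.20, SE) and EGF medium (-1.07 ± 0.20, SE). Pgf, placental growth factor and a Flt1 ligand, fell in ERW against RW (-0.53 ± 0.12, SE) and rose in EGF against RW medium (0.42 ± 0.12, SE). Vegfa, the main ligand of Kdr and Flt1, was at 89.2, 165 and 223 CPM in ERW, 78.1, 97.8 and 206 CPM in EGF and 71.4, 82.4 and 231 CPM in RW libraries. These overlapped, and Vegfa was not called in any of the 3 media comparisons (0.67 ± 0.27, SE, for ERW over RW). Vegfb, a Flt1 ligand, fell in EGF against RW (-0.43 ± 0.10, SE) and rose in ERW against EGF medium (0.39 ± 0.10, SE). For ERW against EGF medium 1 ligand rose and 5 fell, for EGF against RW 3 rose and 2 fell, and for KO against WT 0 were called. With 8 genes tested, these counts describe single genes and not the list.

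A further list of 40 regulators and markers active in endothelium, many of them also made by other cells, was counted in the same fits. In ERW against RW medium 25 fell and 1 rose, in ERW against EGF medium 30 fell and 0 rose, in EGF against RW medium 4 rose and 4 fell, and in KO against WT 0 were called. Of all tested genes, 11.9% fell and 11% rose in ERW against RW, 14.5% fell in ERW against EGF, and 12.9% rose and 12.5% fell in EGF against RW medium, so the count of the list for EGF against RW does not stand above that of all genes. Those that fell in ERW against RW include Nrp1, the co-receptor of VEGF-A and semaphorins (-1.42 ± 0.17, SE), Efnb2, the arterial ephrin-B2 (-0.99 ± 0.10, SE), and Nr2f2, the venous factor COUP-TFII (-0.65 ± 0.11, SE). Ephb4, the receptor of ephrin-B2 and also an epithelial gene, was the one that rose (0.58 ± 0.07, SE), with 248, 337 and 408 CPM in ERW, 325, 384 and 414 CPM in EGF and 180.5, 232 and 269 CPM in RW libraries.

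Among markers of other cell types, many adipocyte, fibroblast and myeloid genes were lower in ERW medium as well. Of all tested genes, 11.9% fell and 11% rose in ERW against RW medium, and 14.5% fell and 13.4% rose in ERW against EGF medium. Counts of 1 or 2 genes of a short list are not set apart from these shares. Of 12 adipocyte markers 12 fell in ERW against RW and 11 in ERW against EGF medium, with sums of 85.3 to 574 CPM in ERW, 423 to 1518 CPM in EGF and 438 to 2292 CPM in RW libraries. Of 16 fibroblast markers 10 fell and 0 rose in ERW against RW, and 13 fell and 1 rose in ERW against EGF medium, with sums of 1931 to 4472 CPM in ERW, 4692 to 9852 CPM in EGF and 3318 to 8256 CPM in RW libraries. Of 12 pericyte and mural markers 6 fell and 2 rose in ERW against RW, and 10 fell and 2 rose in ERW against EGF medium, with sums of 602 to 1157 CPM, 835 to 1514 CPM and 686 to 1355 CPM in ERW, EGF and RW libraries. The median sums of this list were 861, 1216 and 857 CPM in the same order, so its median sum was not lower in ERW than in RW medium. Much of it was Notch3, at a median of 415 CPM in ERW and 442 CPM in RW libraries, and Steap4, at 230 and 234 CPM. Neither was called in that comparison. The 6 that fell were Abcc9, Cspg4, Des, Pdgfrb, Rgs5 and Vtn, and the 2 that rose were Cox4i2 and Ndufa4l2. Of 13 tested myeloid markers 7 fell and 1 rose in ERW against RW, and 7 fell in ERW against EGF medium. The one that rose was Cd14, and the other myeloid markers summed to 9.97 to 31.5 CPM in ERW, 20.9 to 173 CPM in EGF and 28.2 to 81.6 CPM in RW libraries. Of 8 epithelial markers 4 rose and 2 fell (Krt14 and Krt5) in ERW against RW, and 3 rose in ERW against EGF medium. Of 7 Schwann and neural markers 1 rose in ERW against RW and 1 fell in ERW against EGF medium. Their median sums were 716 CPM in ERW, 742 CPM in EGF and 551 CPM in RW libraries. Lymphocyte markers, with Cd3d, Gzma and Ms4a1 at 0 in every library, summed to at most 8.25 CPM and had no calls in 2 tested genes. Platelet and erythroid markers, with Hba-a1, Hba-a2, Hbb-bt and Ppbp at 0, summed to at most 11.4 CPM, and of 3 tested genes 1 rose in ERW against RW medium (Itga2b). In KO against WT over the media none of these markers was called except Ncam1, which fell. The part that other stromal cells have in the endothelial result was not tested.

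**Figure D5:**
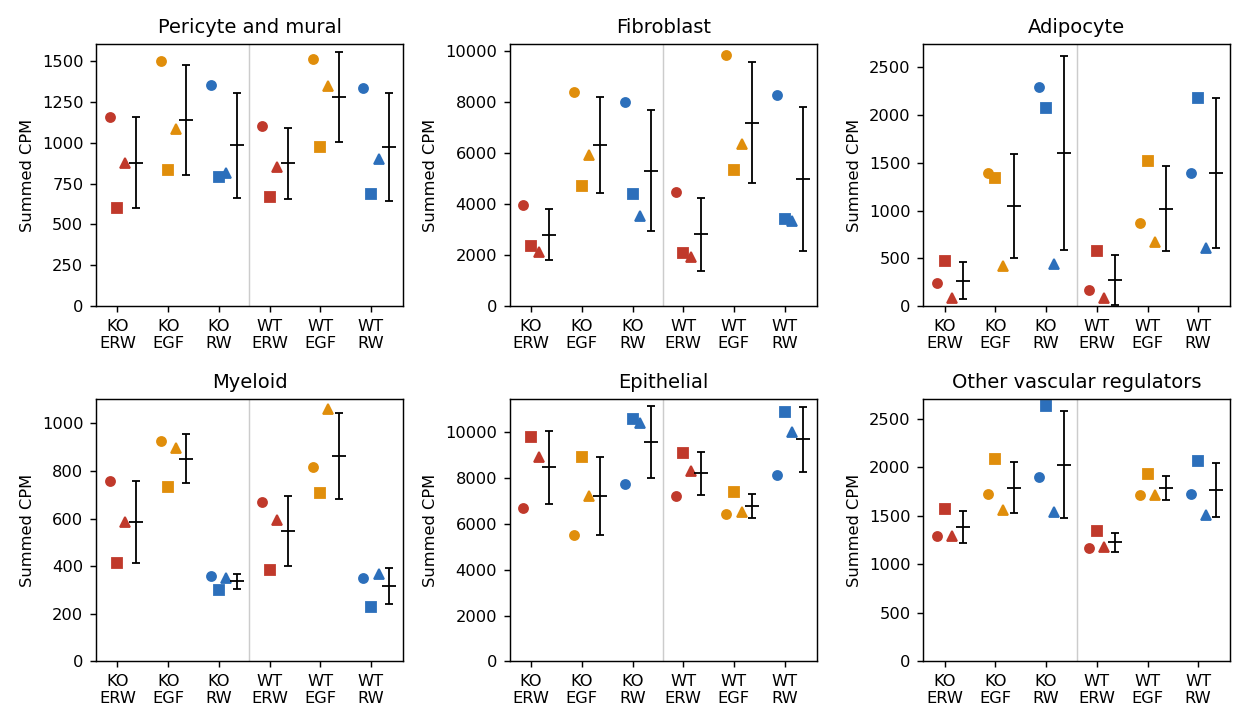
Summed level (y axes, CPM) of marker lists of other cell types and of the further list of vascular regulators in each library, by genotype and medium (x axes), with symbols for batches 1, 2 and 3 (circle, square and triangle) and black bars for the mean ± SD of 3 libraries. Fibroblast and adipocyte sums are low in ERW libraries, and the myeloid sum, most of it Cd14, is lowest in RW libraries.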

How the data were processed

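RNA of 18 organoid cultures was sequenced as single-end reads of 50 bases, from 100 ng of total RNA, per the labels' protocols. The authors deposited whole-number read counts per Ensembl gene, and STAR, DESeq2 and GRCm38 are named in the submitters' processing notes; the counting tool, the annotation release and the use of strand are each not given in the sources used here, so overlapping antisense genes cannot be told apart. Their second deposited table gives, per the file headers, log2 fold changes and adjusted p-values of each comparison, from a model with a batch term, of which only ERW against RW was used. Another 36 per-sample columns of normalized values were not used.

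Counts were scaled with TMM and tested in edgeR 4.0.16 under R 4.3.3: filterByExpr (minimum count 10, minimum total 15), robust quasi-likelihood F-test, two-sided, 6 group means plus batch, Benjamini-Hochberg adjustment over 17092 genes in each of 16 contrasts. The pairing comes from the labels, which give the replicate number as a batch. With 3 libraries against 3, an exact permutation test cannot go below p = 0.1. Alternatives were no replicate block, RLE scaling, no filter, DESeq2 1.42.0, and leaving out each library or batch. The fits were tested on simulated data. The members, the lists and the model with batch were chosen with earlier results of these data known. Levels by medium (lowest, median and highest) or by library are given for up to 3 genes per role. These are the genes with the most counts among those called in an averaged comparison (15 genes). The p-values measure the spread between these cultures. Motifs and promoters came from RefSeq windows, and gene positions and symbols from the deposited table.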

Additional observations from a re-analysis of the deposited data

How the results depend on the processing

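Of the 66 calls of single genes in the 3 comparisons of media averaged over genotypes, 50 were kept under all 25 alternatives, 16 were lost under at least 1, and 0 changed sign. The replicate block mattered most within a genotype. Without the replicate block the called genes of the 36 came to 30 for ERW against RW, 28 for ERW against EGF, 2 for EGF against RW and 0 for KO against WT, beside 33, 31, 2 and 0 with it. In KO alone they came to 8, 0 and 0 without the block, beside 27, 13 and 2 with it, and in WT alone to 8, 16 and 1, beside 27, 32 and 3. Over all tested genes, calls came to 1730, 1743, 2022 and 22 without the block in the same order, beside 3921, 4771, 4355 and 58, and DESeq2 called 223 genes for KO against WT. For EGF against RW averaged over genotypes, DESeq2 called 4 of the 36 genes, beside 2, and leaving out 1 library or batch gave 2 to 6. The leave-out counts were 29 to 33 for ERW against RW and 28 to 32 for ERW against EGF. For EGF against RW in KO, DESeq2 called 4. For ERW against EGF in KO, DESeq2 called 21 and the fit without the filter 7, beside 13. Without batches 1 and 2 in turn, ERW against RW gave 13 and 9 in KO and 9 and 10 in WT. For ERW against EGF, leaving out batches 1, 2 and 3 gave 2, 6 and 3 in KO, and leaving out batch 3 gave 21 in WT. For KO against WT and the interactions all alternatives gave 0. The cause of these shifts was not tested. Depth limits Lyve1 and Esm1 most, the genes with the lowest levels.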
